A study of Mus musculus with 8 samples.

Results

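The 32 genes described here encode enzymes that make serine, one-carbon units carried by folate, purines, pyrimidines and deoxynucleotides, together with 1 purine salvage enzyme. They were listed by name and matched by symbol to the Entrez Gene identifiers of the deposited count table, which holds 27179 identifiers, and all 32 were found. RNA had been sequenced from B cell progenitors sorted out of mouse bone marrow, 2 libraries for each of 4 populations. Pre-proB cells, and the proB and preB cells that follow them in early B cell development, were taken from Ergfl/fl mice without a Rag1Cre allele. The last population, also pre-proB, came from Rag1CreT/+;ErgΔ/Δ mice, in which Cre expressed from the Rag1 locus in lymphoid progenitors removes the floxed part of Erg, the gene of an ETS family transcription factor. Mice of both genotypes were between 7 and 10 weeks of age. The Cre allele is thus a second difference between the genotypes, and no proB or preB cells of the deleted genotype were analysed here. The cells were B220+IgM-IgD-NK1.1-CD11c- and were split by CD43 and CD24. The study's methods name 2 mice, read here as 2 of each genotype, from which the populations were sorted independently. The labels do not tie a mouse to a library, so the stages of 1 genotype may share mice. Tests between stages did not pair them.

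Serine made from a glycolytic intermediate gives up a carbon to folate, and this carbon is used to build the purine ring and to methylate deoxyuridine monophosphate into thymidine monophosphate. Purines are assembled stepwise on activated ribose, pyrimidines are built as a ring that is then joined to it, and ribonucleotide reductase turns ribonucleotides into the deoxynucleotides used in DNA. Early B cell development alternates between dividing cells and cells that rearrange their immunoglobulin genes, and nucleotide synthesis is generally raised in dividing lymphocytes.

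Libraries held between 15565381 and 18457632 counts, at which 3 counts correspond to at most 0.193 CPM (counts scaled to a common library total). All 32 genes passed the filter of 0.5 CPM in at least 2 libraries in both fits, so no member was lost to low counts. Replicates of each population differed by more than sampling noise. For 2 libraries against 2 the smallest p of an exact two-sided permutation test is 0.333. Each adjusted p given here is therefore that of edgeR (quasi-likelihood, Benjamini-Hochberg over all genes tested), with 0.05 as the threshold for a call. Counts of Erg in the Ergfl/fl libraries were 69.8 and 25.1 CPM at the pre-proB, 145 and 129 CPM at the proB and 19.4 and 28.5 CPM at the preB stage, and in Rag1CreT/+;ErgΔ/Δ pre-proB libraries they were 2.49 and 2.58 CPM. The loss of Erg reads in the deleted genotype was called, with a log2 fold change of -4.23 (adjusted p = 0.0250).

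Most of the genes peaked at the proB stage. In Ergfl/fl cells 30 of the 32 were higher in proB than in pre-proB cells, 1 was lower and 1 was not called, and 29 were then lower in preB than in proB cells, 1 was higher and 2 were not called. Of all 13650 genes tested, 36.2% were called higher and 36.8% lower in the first of these comparisons (73% in all), and 29% higher and 29.9% lower in the second (58.9% in all). Libraries of the 2 stages did not overlap for any member in either comparison, as was the case for 87.7% and 81.7% of all genes. The median log2 fold change of the members was 1.59 from pre-proB to proB, where all genes had a median of 0.00, and -0.98 from proB to preB, where all genes also had a median of 0.00. The mean level was highest in proB cells for 31 members and in preB cells for 1, Ctps2. Summed over the members, levels were 2186 and 2074 CPM in the pre-proB, 6003 and 6198 in the proB and 3335 and 3340 in the preB libraries. Most members did not return to the pre-proB level, since 23 were called higher and 2 lower in preB than in pre-proB cells. Of all genes 36.5% and 34.1% were called in those directions (70.7% in all). Groups did not overlap for 30 members and 85% of all genes, and the median was 0.49 against 0.04 for all genes. Sums of the 11 purine genes overlapped, at 944 and 1020 CPM in preB and 993 and 932 in pre-proB libraries. Those of the 7 deoxynucleotide genes did not, at 1556 and 1462 CPM in preB and 558 and 535 in pre-proB libraries.

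**Figure D1:**
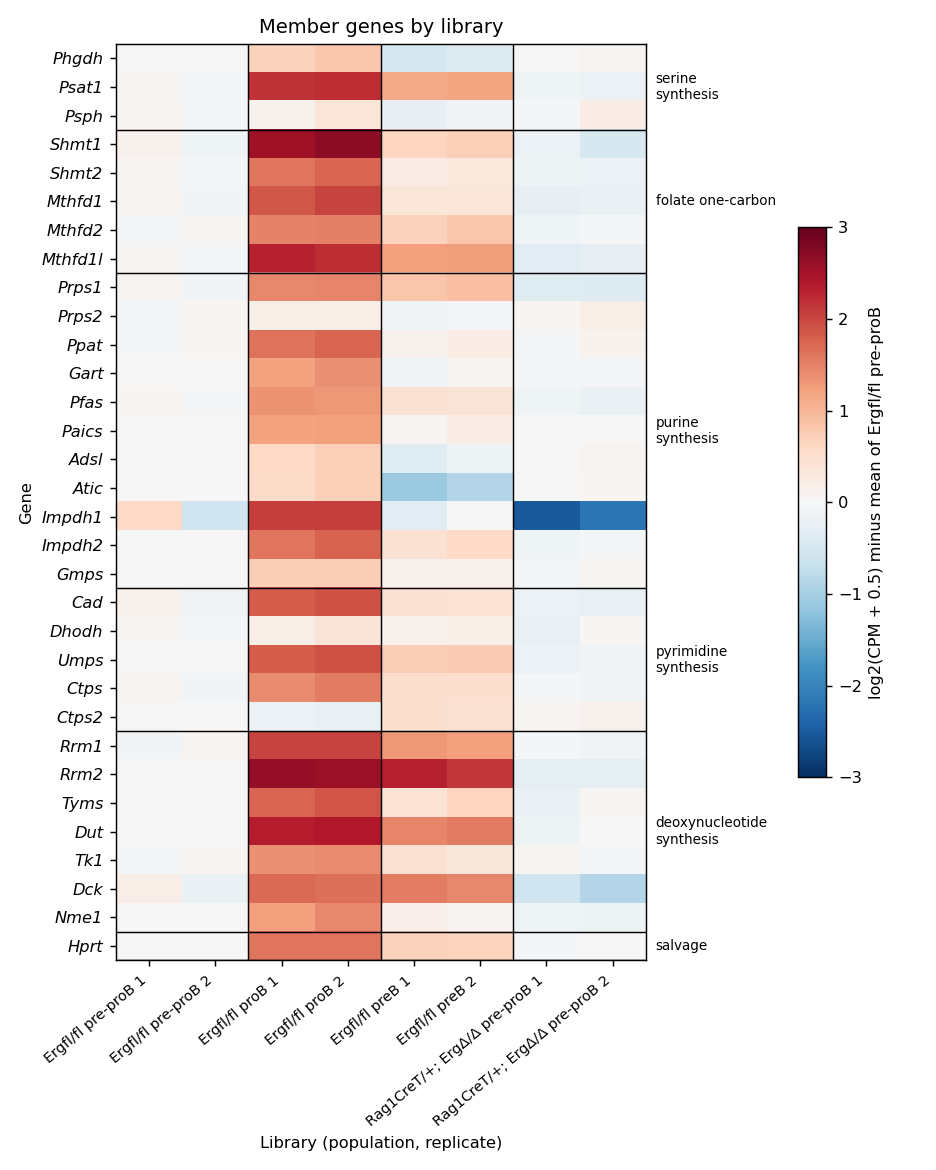
Levels of the 32 genes (rows, grouped by role) in the 8 libraries (columns), as log2(CPM + 0.5) minus the mean of the 2 Ergfl/fl pre-proB libraries. Red marks higher and blue lower values, and the 2 Ergfl/fl proB columns are red in nearly every row, while Impdh1 is the only row that is dark blue in the 2 Rag1CreT/+;ErgΔ/Δ columns.

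Cell division genes and markers of other cells moved over the same stages. All 20 genes of a proliferation list, among them Mki67, were called higher in proB than in pre-proB cells (median log2 fold change 2.05) and all 20 lower in preB than in proB cells (median -0.67), and their summed level was 2557 and 2770 CPM in the pre-proB, 11231 and 11082 in the proB and 7566 and 6631 in the preB libraries. Pre-proB libraries carried many reads of genes typical of plasmacytoid dendritic cells. The 8 genes of that list summed to 14755 and 15734 CPM in Ergfl/fl pre-proB, between 1281 and 1323 in proB and between 2749 and 2786 in preB libraries, and all 8 were called lower in proB than in pre-proB cells. T-like markers summed to 657 and 811 CPM in pre-proB libraries and to at most 98.1 in proB and preB libraries, NK-like markers to 206 in each pre-proB library and at most 14.8 later, and myeloid-like markers to 818 and 910 against a range of 55.3 to 330. In proB against pre-proB cells 7 T-like genes were called lower and 1 higher, and all 8 NK-like genes lower. The myeloid-like list was mixed, with 4 of 8 genes called lower, 2 higher and 2 not called. Of 7 tested erythroid-like genes 5 were called higher and 1 lower. Of the B lineage-like list all 8 genes were higher in proB than in pre-proB cells, and Ebf1, a transcription factor that specifies B cells, averaged in pre-proB libraries 15.9% of its proB level. Single genes carried much of these sums in the 2 Ergfl/fl pre-proB libraries. Cd4 was at 478 and 609 CPM and Cd8a at 113 and 120, while Cd3e, Cd3d, Cd3g and Trac, which encode parts of the T cell receptor complex, were between 4.66 and 8.44 CPM. Klrd1 was at 176 and 172 CPM in the NK-like list and Ly6c2 at 630 and 748 CPM in the myeloid-like list. No gene of these lists was at 0 in all libraries. The part of cell division or of other cells in the stage differences of the members was not tested, and in sorted bulk samples fewer cells that express a gene and less of its RNA per cell cannot be told apart.

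Promoter sequence was examined because so many members moved together. RefSeq windows of GRCm38.p6, from 250 bases before to 50 after a start site, were matched for 30 of the 32 genes in 36 windows, and Dhodh and Pfas had none. The E-box CACGTG, which reads the same on both strands and is the core bound by Myc and its partners, was in 6 member windows of 5 genes, 16.7% of the 36 windows, and in 7.92% of all 22271 windows of that length. E2F-type letters (TTTCCCGC, TTTCGCGC, TTTGCCGC or TTTGGCGC on either strand) were in 2 member windows, 5.56%, and in 2.83% of all windows. These were the windows of Ppat and Prps2. The match of Prps2 lies after the start site, at position 33, and is not printed. Prps2 had a log2 fold change into proB of 0.21, the smallest of the purine genes, and Ppat one of 1.72. The ATF4-type letters TGATGNAA were in 1 member window, that of Prps1, which is 2.78% against 3.52% of all windows, and the ETS-type core CCGGAAGT was in 2, those of Gart and Tyms, which is 5.56% against 5.09% of all windows. Matches of letters are given as a description and were not tested. The stretches that hold the E-box, in capitals, are shown for all 5 genes. Each was called higher in proB than in pre-proB cells and lower again in preB cells, a pattern of 28 of the 32 members. They lie at chr1:71557137-71557155 (plus strand, Atic), chr9:108560314-108560343 (plus, Impdh2), chr11:93968273-93968302 (minus, Nme1, the more upstream of 2 windows), chr5:76951087-76951116 (plus, Paics) and chr5:30073669-30073698 (minus, Tyms).
Atic: ggacctcggggtCACGTGg
Impdh2: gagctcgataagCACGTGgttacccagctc
Nme1: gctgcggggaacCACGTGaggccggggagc
Paics: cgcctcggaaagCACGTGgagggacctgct
Tyms: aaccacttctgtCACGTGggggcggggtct

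Ppat, which catalyses the committed step of purine synthesis, starts head to head with Paics, and their annotated spans share 277 bases, so unstranded counts of those bases could go to either gene. The Ppat window held the E2F-type letters 2 times, in capitals below, at positions -211 and -158 from its start site (chr5:76951770-76951801 and chr5:76951717-76951748, minus strand), both inside the annotated span of Paics.
Ppat at -211: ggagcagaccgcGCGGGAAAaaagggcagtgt
Ppat at -158: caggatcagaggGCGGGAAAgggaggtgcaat

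The serine branch was uneven. Phgdh, the first enzyme of serine synthesis, was at 136 and 136 CPM in the pre-proB, 220 and 239 in the proB and 93.9 and 104 in the preB libraries, and it ended 0.40 ± 0.07 (log2, SE) below its pre-proB level, a call with an adjusted p of 0.00105. Psat1, the aminotransferase that follows it, went from 50.9 and 47.9 CPM to 225 and 232 and back to 109 and 113. That is a log2 fold change of 2.23 ± 0.06 into proB cells (adjusted p = 1.32e-08). The preB mean was 0.487 times the proB mean (adjusted p = 5.38e-06), and no 2 stages overlapped. Psph, the phosphatase that completes serine, stood at 19.4 and 17.6, then 19.9 and 23.8, then 15.5 and 17.4 CPM. Its step into proB, 0.26 ± 0.12, was not called (adjusted p = 0.0817), and its step into preB cells was called with -0.37 ± 0.12 (adjusted p = 0.0262). Psph shares 88 annotated bases with Cct6a.

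All 5 folate enzymes were called higher in proB than in pre-proB cells, lower in preB than in proB cells, and higher in preB than in pre-proB cells. Shmt1, the cytosolic enzyme that moves a carbon from serine to folate, had 13.7 and 11.4 CPM in the pre-proB, 75.6 and 82.6 in the proB and 19.9 and 20.7 in the preB libraries. Its log2 fold changes were 2.68 ± 0.10 into proB (adjusted p = 5.03e-08), the highest value among the members and within its error of Rrm2, and -1.92 ± 0.09 into preB cells (adjusted p = 3.34e-06). Shmt2, the mitochondrial form, went from 63.0 and 59.4 to 187 and 208 and then 72.3 and 76.0 CPM, with steps of 1.71 ± 0.07 and -1.38 ± 0.07 (adjusted p = 1.18e-07 and 3.87e-06). For both forms the preB libraries lay near the pre-proB ones and far from the proB ones.

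Mthfd1l, which releases formate in mitochondria, was at 31.9 and 30.4 CPM in the pre-proB, 155 and 146 in the proB and 73.5 and 74.4 in the preB libraries, a step of 2.29 ± 0.06 into proB cells (adjusted p = 1.41e-08). Mthfd1, the cytosolic enzyme of 3 activities that takes up that formate, went from 34.4 and 31.0 to 120 and 135 and then to 42.4 in both preB libraries, and its step out of proB was -1.55 ± 0.08 (adjusted p = 3.87e-06). Mthfd2, a mitochondrial dehydrogenase, rose by 1.54 and fell by 0.71 on the log2 scale. Mean preB levels thus ranged from 25.7% of proB for Shmt1 to 59.5% for Mthfd2.

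All 11 purine synthesis genes were called higher in proB than in pre-proB cells and all 11 lower in preB than in proB cells. Their log2 fold changes into proB ranged from 0.21 for Prps2 to 1.98 for Impdh1, with a median of 1.32. The value of Impdh1 was 1.48 without the second and 2.63 without the first Ergfl/fl pre-proB library, both called (adjusted p = 4.91e-06 and 1.83e-07). Ppat was at 31.0 and 33.5 CPM in the pre-proB, 101 and 109 in the proB and 35.4 and 37.4 in the preB libraries, and its step out of proB was -1.49 ± 0.08 (adjusted p = 3.87e-06). Gart (1.32), Pfas (1.35) and Paics (1.24), which carry out consecutive middle steps of the ring, had log2 fold changes close to each other. Adsl (0.68) and Atic (0.66), which act near the end of the pathway, and Gmps (0.76), which makes guanosine monophosphate, had smaller log2 fold changes.

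Atic, which closes the ring, was at 129 and 130 CPM in the pre-proB, 191 and 212 in the proB and 59.5 and 70.7 in the preB libraries. Its preB level was the lowest of its 3 stages, with log2 fold changes of -1.60 ± 0.09 against proB (adjusted p = 5.38e-06) and -0.94 ± 0.09 against pre-proB cells (adjusted p = 2.22e-05). Atic and Phgdh were the 2 members called lower in preB than in pre-proB cells. Gart, Adsl, Prps2 and Impdh1 were not called in that comparison, with log2 fold changes from -0.22 to 0.04, while Prps1, Ppat, Pfas, Paics, Impdh2 and Gmps were called higher. The calls of Ppat, Paics and Gmps, with log2 fold changes between 0.19 and 0.23, were lost in 7, 6 and 5 of 16 alternatives.

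Of the pyrimidine genes, Cad, whose protein carries the first 3 activities of the pathway, went from 57.7 and 50.3 CPM in pre-proB to 191 and 203 in proB and 73.9 and 72.1 in preB libraries. Its log2 fold changes were 1.89 ± 0.07 and -1.40 ± 0.07 (adjusted p = 6.71e-08 and 3.87e-06). Umps, which finishes uridine monophosphate, was at 31.1 and 32.0, then 112 and 119, then 53.1 and 54.2 CPM, with steps of 1.89 ± 0.07 and -1.07 ± 0.06 (adjusted p = 4.51e-08 and 5.88e-06). Dhodh, the mitochondrial enzyme between them, moved far less. It stood at 17.1 and 16.2, 19.1 and 22.0, and 18.2 and 18.8 CPM, with a called step of 0.32 ± 0.11 into proB (adjusted p = 0.0211) and a step of -0.12 ± 0.10 into preB that was not called (adjusted p = 0.351).

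Ctps and Ctps2, the paralogous synthases of cytidine triphosphate, went in opposite directions. Ctps was at 33.4 and 29.9 CPM in the pre-proB, 85.4 and 94.6 in the proB and 45.4 and 44.7 in the preB libraries, with called log2 fold changes of 1.53 and -0.96. Ctps2 was at 78.4 and 76.5, 68.3 and 66.2, and 107 and 106 CPM. It was the 1 member called lower in proB than in pre-proB cells, by a small log2 fold change of -0.19 ± 0.06 (adjusted p = 0.0152) that was not called with total counts in place of TMM scaling or without either proB library, and the 1 member called higher in preB than in proB cells (0.71 ± 0.06, adjusted p = 1.97e-05). Per length, in FPKM (CPM divided by the kilobases of annotated exon), the ratio of Ctps to Ctps2 was 0.600 and 0.550 in the pre-proB, 1.76 and 2.01 in the proB and 0.594 and 0.592 in the preB libraries. Ctps2 was the more abundant form in both flanking stages and Ctps the more abundant in proB cells. Ctps2 lies on chromosome X from 162901238 to 163032508 and its span shares 2608 annotated bases with S100g.

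The deoxynucleotide genes had the highest median share of the proB level left in preB cells, a difference between groups that was not tested. All 7 were called higher in proB than in pre-proB cells, 6 were called lower in preB cells, and the mean preB level was 54.7% of proB at the median, against 37.6% for the folate, 47.7% for the purine and 50.0% for the pyrimidine genes. Rrm2, the regulated small subunit of ribonucleotide reductase, was at 92.4 and 91.7 CPM in the pre-proB, 578 and 557 in the proB and 461 and 405 in the preB libraries. Its log2 fold changes were 2.64 ± 0.08 into proB (adjusted p = 2.68e-08) and -0.35 ± 0.08 into preB cells (adjusted p = 0.00443), so preB cells stayed 2.29 ± 0.08 above pre-proB cells (adjusted p = 5.26e-08), the largest such difference among the members. Rrm1, the large subunit, was at 153 and 170, 658 and 661, and 399 and 379 CPM, and preB cells stayed 1.32 ± 0.08 above pre-proB cells (adjusted p = 1.14e-06).

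Dut, which removes dUTP and yields the substrate for thymidylate synthesis, was at 49.1 and 47.7 CPM in the pre-proB, 250 and 259 in the proB and 135 and 143 in the preB libraries. Its log2 fold change into proB was 2.41 ± 0.06 (adjusted p = 1.17e-08), the call with the lowest p among the members, and preB cells stayed 1.58 ± 0.06 above pre-proB cells (adjusted p = 9.90e-08). Dck, the kinase that salvages deoxycytidine, was at 176 and 133, 495 and 481, and 443 and 416 CPM. Its rise of 1.68 ± 0.11 into proB was called (adjusted p = 1.91e-06), and its difference between preB and proB cells, -0.15 ± 0.11, was not (adjusted p = 0.264). Tyms, the thymidylate synthase, and Tk1, the cytosolic thymidine kinase, fell by 1.25 and 0.97 on the log2 scale into preB cells, and Nme1, a nucleoside diphosphate kinase, fell by 1.21. Nme1 lies beside its close paralog Nme2 on chromosome 11, so its counts may hold shared reads.

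**Figure D2:**
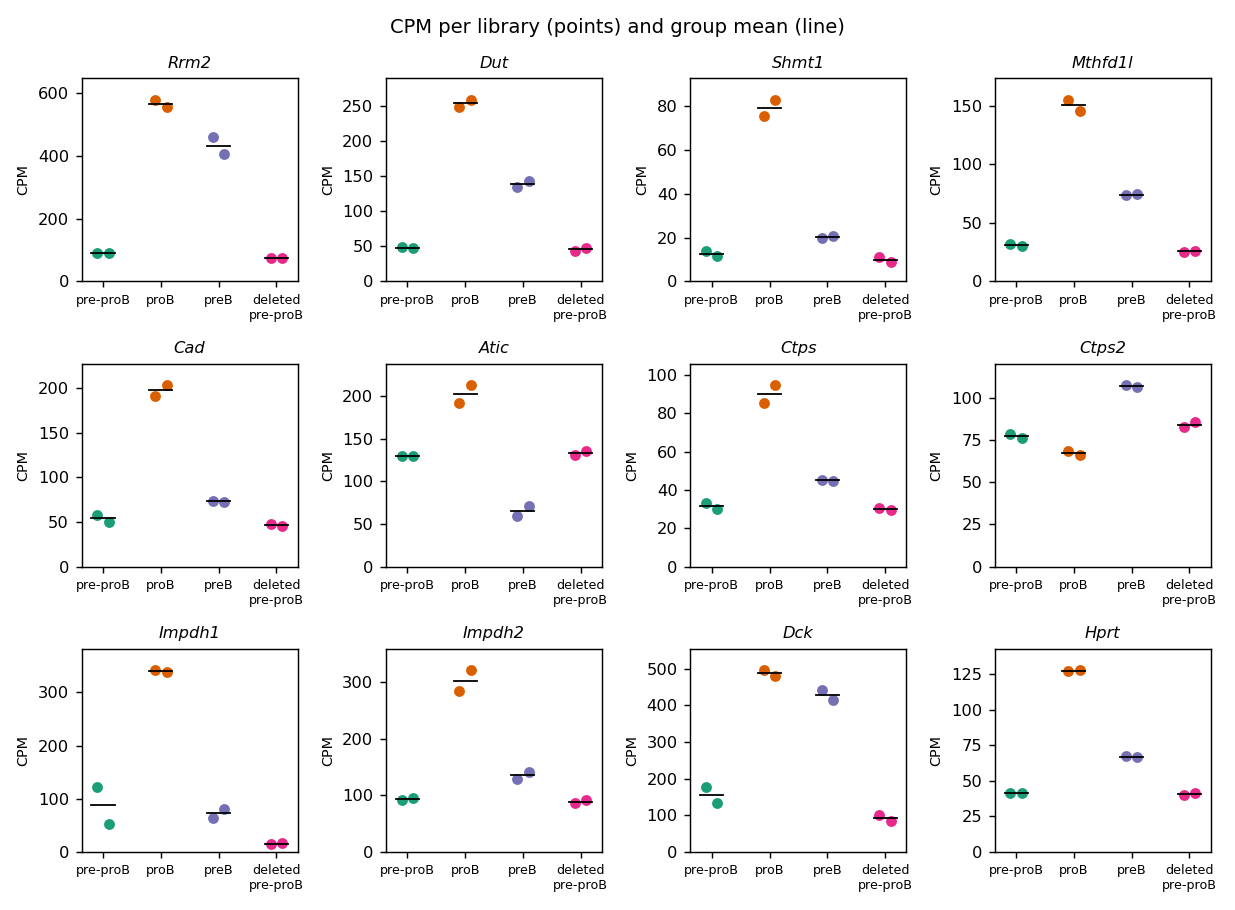
CPM of 12 members in each library (points) with the mean of the 2 libraries (line) for Ergfl/fl pre-proB, proB and preB cells and for Rag1CreT/+;ErgΔ/Δ pre-proB cells (deleted). Each axis starts at 0. Rrm2 and Dck stay high in preB cells, Atic ends below its pre-proB level, Ctps2 alone dips in proB cells, and the points of Impdh1 at 122 and 53.0 CPM differ more, relative to their mean, than the other plotted pairs.

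Hprt, which salvages hypoxanthine and guanine and is often used as a reference gene, was not flat over these stages. It was at 41.6 and 41.7 CPM in the pre-proB, 127 and 128 in the proB and 67.2 and 66.8 in the preB libraries. Its log2 fold changes were 1.63 ± 0.06, -0.89 ± 0.05 and, between preB and pre-proB cells, 0.74 ± 0.06, all called (adjusted p = 4.51e-08, 6.99e-06 and 5.80e-06).

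**Figure D3:**
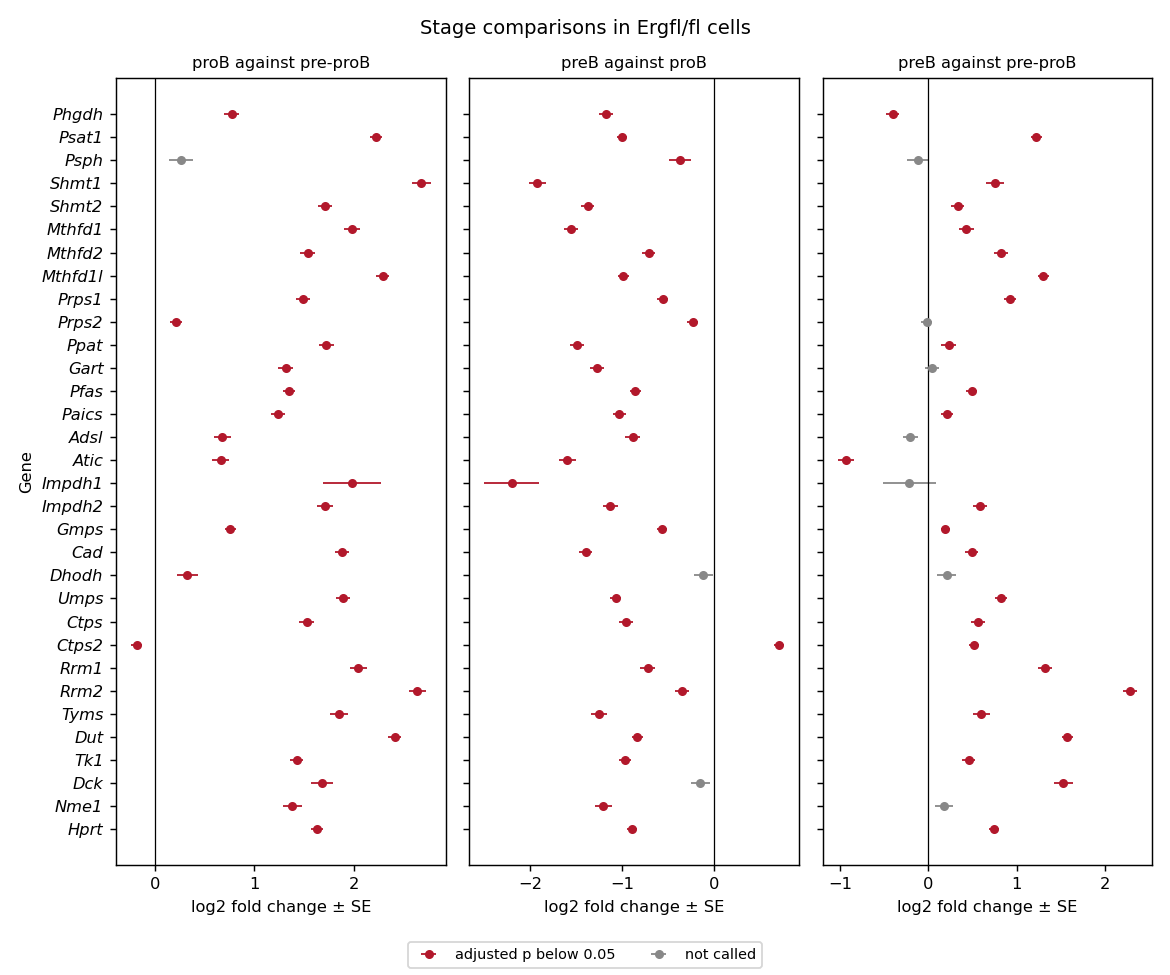
Log2 fold change with its standard error for each member in the 3 comparisons of Ergfl/fl stages, red where the adjusted p was below 0.05 and grey where it was not. All but Ctps2 and the uncalled Psph are red and right of 0 in the first panel, all but Ctps2, Dck and Dhodh are red and left of 0 in the second, and 7 members are grey in the third.

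Other paralog pairs also changed in balance. The ratio of Prps1 to Prps2 in FPKM, the X-linked enzymes that activate ribose, was 0.396 and 0.342 in the pre-proB, 0.890 and 0.888 in the proB and 0.701 and 0.717 in the preB libraries. The ratio of Shmt1 to Shmt2 was 0.175 and 0.155, then 0.327 and 0.321, then 0.223 and 0.220. Mthfd1l over Mthfd2 went from 0.607 and 0.545 to 1.00 and 0.934 and then 0.831 and 0.770. In each of these pairs the 2 proB libraries gave the highest ratios and did not overlap the other stages. Impdh1 over Impdh2, the paralogous enzymes that commit inosine monophosphate to guanine nucleotides, was 0.906 and 0.380 in the pre-proB, 0.817 and 0.718 in the proB and 0.338 and 0.387 in the preB libraries, so 1 pre-proB library lay above both proB libraries and the other between the preB libraries.

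The comparison of genotypes asks what the loss of Erg changes in pre-proB cells. Of the 32 members 1 was called lower in Rag1CreT/+;ErgΔ/Δ than in Ergfl/fl pre-proB cells and none higher, with edgeR, DESeq2 and limma-voom alike giving no higher call, where 0.946% and 0.215% of the 13005 genes tested were called in those directions, 1.16% in all. The members' median log2 fold change was -0.09 and that of all genes 0.01, with 9 members positive and 23 negative. An unadjusted p below 0.05 was found for 7 of the 32 members, against 1624 of the 13005 genes tested. Libraries of the genotypes did not overlap for 21 of the 32 members, against 45.2% of all genes. The 20 proliferation genes had a median of -0.07 with none called (3 at an unadjusted p below 0.05), and their sum was 2504 and 2518 CPM in the deleted libraries.

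Impdh1 (chromosome 6, 29200434 to 29216364, GRCm38) was the called gene. It was at 122 and 53.0 CPM in the Ergfl/fl and at 13.7 and 17.2 CPM in the Rag1CreT/+;ErgΔ/Δ pre-proB libraries, so the groups did not overlap, and the deleted mean was 17.6% of the control mean. Its log2 fold change was -2.51 ± 0.39 (SE, adjusted p = 0.0415). The call was close to the threshold: the adjusted p was 0.0510 with total counts, 0.0583 with edgeR's version 4 method and 0.153 with limma-voom, and 0.279 and 0.224 without the first and the second deleted library. Without the first or the second control library the gene stayed called, with log2 fold changes of -1.79 and -3.00 (adjusted p = 0.000208 and 1.32e-06). Its 2 RefSeq promoter windows held none of the 4 kinds of letters searched.

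Impdh1 and the B lineage-like genes were higher in the first than in the second control library, to unlike degrees. Impdh1 differed by 2.31 times between them and Erg from 69.8 to 25.1 CPM. Of the B lineage-like genes Ebf1 differed by 2.82 and Pax5 by 3.51 times, but Cd24a by 1.55 and Blnk by 1.17 times. These ratios set 1 library against 1. The 8 B lineage-like genes summed to 1494 and 768 CPM in control and 395 and 414 in deleted pre-proB libraries, and 6 of the 8 were called lower in the deleted genotype, Ebf1 averaging 1.18% of control. None of the 8 was at 0 in all libraries, and Blnk, at 85.7% of control, and Cd24a were not called. NK-like markers summed to 264 and 396 CPM in deleted libraries, above the 206 of each control library, with 5 of 8 called higher. The plasmacytoid dendritic-like sum was 16597 and 17285 CPM in the deleted libraries with none of 8 called (1 at an unadjusted p below 0.05). T-like markers summed to 1466 and 830 CPM in deleted libraries, against 657 and 811 in control, with none of 8 called by edgeR, DESeq2 or limma-voom (2 at an unadjusted p below 0.05 with edgeR). The myeloid-like sum was 1083 and 909 CPM in deleted and 818 and 910 in control libraries, and 1 of 8 was called lower, S100a9, at 5.03 and 5.60 against 35.8 and 17.0 CPM (-2.31 ± 0.35, adjusted p = 0.0407). The plasma cell-like sum was 673 and 783 against 850 and 846 CPM, and 1 of 7 tested was called lower, Ighg2c, an immunoglobulin heavy chain gene, at 0.06 and 0.26 against 92.0 and 54.3 CPM (adjusted p = 0.00296). The marker calls depended on the tool. DESeq2 called 6 B lineage-like genes lower and 7 NK-like genes higher, edgeR's version 4 method 5 and 4, and limma-voom 0 of either list. Of the myeloid-like genes DESeq2 called 1 higher and 2 lower, and limma-voom and edgeR's version 4 method called 0. Of the plasma cell-like genes DESeq2 called 2 lower, edgeR's version 4 method 1 and limma-voom 0. The part of these marker shifts in the Impdh1 difference was not tested. Its paralog Impdh2 was at 91.8 and 94.8 CPM in control and 85.9 and 90.8 in deleted libraries, with a log2 fold change of -0.08 ± 0.06 (adjusted p = 0.640), and the FPKM ratio of Impdh1 to Impdh2 fell to 0.109 and 0.129.

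Dck came next, at 176 and 133 CPM in control and 101 and 83.0 in deleted libraries, without overlap. Its log2 fold change of -0.75 ± 0.15 was not called (adjusted p = 0.0764), though it was with DESeq2 (adjusted p = 0.000110), with no filter (adjusted p = 0.0405), in a fit of all 8 libraries (adjusted p = 0.0168) and without the second control library (adjusted p = 0.00218). Rrm2 was at 92.4 and 91.7 against 76.1 and 75.1 CPM (-0.29 ± 0.06, adjusted p = 0.0852). Prps1 was at 34.8 and 31.4 against 25.5 and 25.2 CPM (-0.39 ± 0.09, adjusted p = 0.104) and was called only in the fit of all 8 libraries (adjusted p = 0.0223). None of these 3 passed the threshold, although for each of them both deleted libraries lay below both control libraries.

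The 5 folate enzymes all had negative values, from -0.35 ± 0.17 for Shmt1 to -0.10 ± 0.08 for Mthfd2, and none was called. Mthfd1l, the one with the lowest p, was at 31.9 and 30.4 CPM in control and 25.0 and 26.3 in deleted libraries (-0.28 ± 0.08, adjusted p = 0.198). Cad was at 57.7 and 50.3 against 48.0 and 45.8 CPM (-0.21 ± 0.09, adjusted p = 0.401). Outside Impdh1, Dck and Prps1 the mean deleted level of the members lay between 78.8% of control for Shmt1 and 109% for Prps2.

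**Figure D4:**
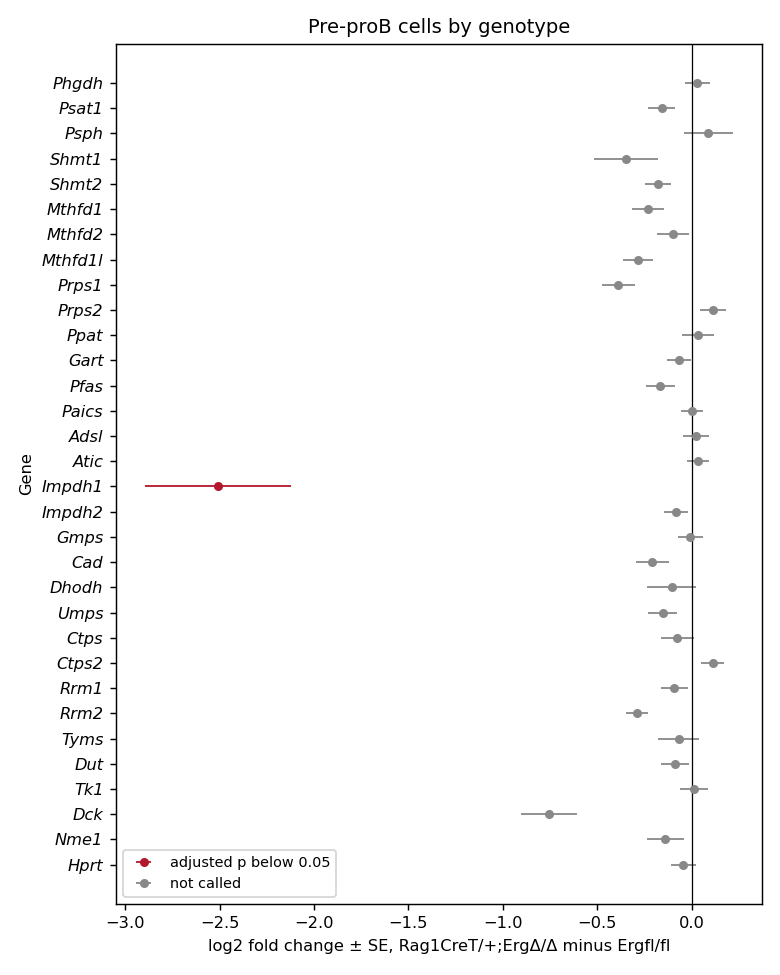
Log2 fold change with its standard error for each member in pre-proB cells, Rag1CreT/+;ErgΔ/Δ minus Ergfl/fl, red where the adjusted p was below 0.05 and grey where it was not. Impdh1, at -2.51, is the only red point, Dck follows at -0.75, and the other members lie between -0.39 and 0.11.

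Other genes of the same pathways were counted beside the members, and the difference between the lists was not tested. Of 24 tested other folate and one-carbon genes 13 (54.2%) were called higher and 4 (16.7%) lower in proB than in pre-proB cells. In preB against proB cells 5 (20.8%) were higher and 14 (58.3%) lower. Of all genes 36.2% were higher and 36.8% lower at the first step, and 29% and 29.9% at the second. Ahcy, which clears S-adenosylhomocysteine, rose by 2.50 on the log2 scale into proB cells. Slc1a5, an amino acid transporter, rose by 2.07 into proB and by another 0.84 into preB cells, from 154 and 131 CPM in pre-proB to 1059 and 998 in preB libraries. Slc19a1, the reduced folate carrier, rose by 1.76 and fell by 1.70. Between genotypes 0 of 23 were called (3 at an unadjusted p below 0.05), and 0 with DESeq2, limma-voom or edgeR's version 4 method.

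Of 30 tested other nucleotide genes 20 (66.7%) were higher and 10 (33.3%) lower in proB than in pre-proB cells, against 36.2% and 36.8% of all genes. In preB against proB cells 10 (33.3%) were higher and 16 (53.3%) lower, against 29% and 29.9% of all genes. The shares lower at the first step and higher at the second were thus near those of all genes. Pnp and Ada, which break down purine nucleosides, were 3.44 and 3.17 times as high in proB as in pre-proB cells and then fell by 1.77 and 2.07 on the log2 scale. Samhd1, which degrades deoxynucleotides, ran the other way, from 407 and 455 CPM in pre-proB to 126 and 128 in proB and 458 and 485 in preB libraries, with log2 fold changes of -1.74 and 1.93. Rrm2b, the small reductase subunit known for use outside S phase, was at 85.9 and 70.4, 130 and 120, and 343 and 351 CPM and so rose at the step at which Rrm2 fell (1.51 ± 0.09, adjusted p = 5.59e-06). Gmpr, which converts guanosine monophosphate to inosine monophosphate, was the 1 of 30 called between genotypes, at 7.13 and 3.56 CPM in control and 0.56 and 0.77 in deleted libraries (-2.99 ± 0.45, adjusted p = 0.0403). That is 3.33% of the list called lower, against 0.946% of all genes. DESeq2 also called 1 gene of that list, and limma-voom and edgeR's version 4 method called 0.

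Of 12 regulators, factors known to act on such genes, 11 (91.7%) were higher and 1 (8.33%) lower in proB than in pre-proB cells. The shares of all genes were 36.2% and 36.8%. In preB against proB cells 4 (33.3%) were higher and 7 (58.3%) lower, against 29% and 29.9% of all genes. Myc was at 20.7 and 14.3 CPM in the pre-proB, 170 and 178 in the proB and 19.9 and 23.5 in the preB libraries, with log2 fold changes of 3.34 ± 0.14 and -2.97 ± 0.13 (adjusted p = 1.08e-07 and 2.81e-06). E2f2 was at 61.5 and 43.8, 586 and 545, and 856 and 777 CPM and rose at both steps, by 3.45 and 0.57. In deleted pre-proB cells Myc was at 6.21 and 5.80 CPM (-1.55 ± 0.21, adjusted p = 0.0293) and E2f2 at 25.0 and 27.0 CPM (-1.02 ± 0.16, adjusted p = 0.0421). These were the 2 of 11 tested regulators called between genotypes, where 0.946% of all genes were called lower. Of the regulators DESeq2 called 2, edgeR's version 4 method 1 and limma-voom 0.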

How the data were processed

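Per the labels and the study's methods, the authors demultiplexed with CASAVA 1.8.2, trimmed with Trim Galore, aligned to mm10 (GRCm38) with STAR and counted reads with featureCounts and Rsubread's Entrez annotation. They deposited whole-number counts without normalization, and all libraries came from the same lane. STAR's version and any use of strand: not given in the sources used here. Overlapping genes may share reads.

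The fits used edgeR 4.0.16 in R 4.3.3 (TMM, glmQLFit in legacy mode, glmQLFTest), with 4 pre-proB or 6 Ergfl/fl libraries, at least 0.5 CPM in at least 2 libraries, and Benjamini-Hochberg adjustment over all genes kept. Printed CPM were scaled by TMM factors estimated from all 8 libraries without a filter. Fold changes use TMM factors from the libraries and genes kept in each fit, so signs can differ for values near 0. The filter and the limit of 3 counts use library totals alone. FPKM used GENCODE exon lengths. The procedure was tested on simulated data. Limits of 3 counts cover counting error only. The study's methods call the libraries of a population biological replicates, while the labels do not say which animal gave each library. The p-values rest on the spread between these samples, which can include technical spread.

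Members, lists and tests were chosen with earlier results of these data known. Full values are given for up to 8 members per comparison, called ones with the lowest p first, and up to 6 genes per pathway list, besides paralog pairs. Dhodh, Psph, Phgdh, Ctps2 and Impdh2 are named because their pattern differed or as paralogs, some after their values were seen, as were the single marker genes. Alternatives were total counts or DESeq2 size factors for scaling, no filter or at least 1 CPM, DESeq2 1.42.0, limma-voom (limma 3.58.1), edgeR's version 4 method, 260 immunoglobulin identifiers left out, a replicate block, all 8 libraries in one fit, and each library left out. Symbols came from RefSeq for 25275 identifiers. Protein sequences were not used here. Python 3.11.15 with matplotlib 3.10.9 made the figures. Some items are not reported here.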

Additional observations from a re-analysis of the deposited data

How the results depend on the processing

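In the 3 stage comparisons the counts of members called higher and lower stayed within 1.5 times under all 16 alternatives, except that the count called lower in proB than in pre-proB cells, 1 (Ctps2), was 0 with total counts and 0 to 1 with a library left out. The median from pre-proB to proB was 1.64 with total counts and 1.48 to 1.62 with a library left out, that from proB to preB was -1.04 with total counts and -1.04 to -0.97 with a library left out, and that from pre-proB to preB was 0.44 with no filter. Between genotypes the count of members called lower, 1, was 0 with total counts, limma-voom or edgeR's version 4 method, 2 with no filter, DESeq2 or the replicate block, 3 in the fit of all 8 libraries and 0 to 2 with a library left out, and the count called higher was 0 throughout. All genes called between genotypes ranged from 10 to 442 around 151, and the share of calls that were higher was 18.5%, 10% to 62.5% over the alternatives, the highest without the first deleted library. The replicate block called Dck besides Impdh1 (adjusted p = 0.00984 and 0.0457). No label says that a replicate number marks 1 mouse, although stages may have been sorted from the same mice. The numbers were not taken as pairs because not every correlation of the difference between replicates 1 and 2 was above 0.1. Among the Ergfl/fl stages it was 0.261 for pre-proB with proB, 0.0287 for pre-proB with preB and 0.0684 for proB with preB. Between genotypes, which cannot share a mouse, it was 0.00503. The p-values between stages are thus those of unpaired tests on samples that may be paired. Some small differences in the stages lost or gained their call with a library left out: Prps2 into proB without the first pre-proB or the second proB library (0.12 and 0.18), Dhodh into proB without either pre-proB or the second proB library (0.20 to 0.30), Psph into proB without the first proB library (0.39, gained) and into preB without the second proB or the first preB library (-0.26 and -0.29), and Adsl, called lower in preB than in pre-proB cells in 8 of 16 alternatives (adjusted p = 0.0111 to 0.347 over all of them).

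Signs turned mainly for values near 0 that were not called. Between genotypes these were Phgdh (-0.0033), Paics (-0.031), Adsl (-0.011), Atic (-0.00091) and Tk1 (-0.020) with total counts and Gmps (0.0061) in the fit of all 8 libraries. With a library left out the ranges that crossed 0 were -0.037 to 0.107 for Ppat, -0.0048 to 0.0085 for Paics, -0.162 to 0.0049 for Ctps, -0.037 to 0.059 for Tk1, -0.020 to 0.067 for Adsl, -0.058 to 0.045 for Gmps, -0.240 to 0.019 for Dhodh, -0.214 to 0.066 for Tyms, -0.017 to 0.078 for Phgdh and -0.062 to 0.226 for Psph. Between preB and pre-proB cells Gart was -0.015 with no filter, -0.0019 in the fit of all 8 libraries and -0.059 to 0.119 with a library left out, and Prps2 was 0.0046 without immunoglobulin genes and -0.131 to 0.0070 with a library left out. Impdh1 was the exception, called in opposite directions in that comparison: 0.42 without the first control pre-proB library (adjusted p = 0.0163) and -0.73 without the second (adjusted p = 0.000504), against -0.22 with both. The cause was not tested. A library left out leaves a lone library assumed to vary like the other groups.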
